A study of Mus musculus with 6 samples.

Results

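The transcripts of 10 genes of platelet-derived growth factor (PDGF) and epidermal growth factor (EGF) signalling were examined in mouse embryonic fibroblasts (MEFs) with and without the mitochondrial protease YME1L. They were the PDGF ligands Pdgfa, Pdgfb, Pdgfc and Pdgfd, the PDGF receptors Pdgfra and Pdgfrb, the EGF receptor Egfr, and its ligands Hbegf, Areg and Ereg. Loci were taken where their name in the count table held one of these symbols, which gave 10 of 51499 loci. None of the 10 was merged with another gene, and all 10 were among the 13867 loci with enough counts to be tested. Poly(A)-selected RNA was sequenced from 3 independent cultures of each genotype. Both genotypes were MEFs immortalized with SV40, which carried Yme1l alleles flanked by loxP sites. Cre was delivered to the fl/fl cells, and the cells called WT come from clones in which the floxed gene was still present, those called Yme1l-/- from clones in which it was gone. Since the genotypes are clones, a difference between genotypes and a difference between clones cannot be told apart.

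PDGFs are secreted dimers that bind 2 receptor tyrosine kinases, the α chain encoded by Pdgfra and the β chain encoded by Pdgfrb, and they drive growth and migration of fibroblasts and mural cells. HB-EGF, amphiregulin and epiregulin, encoded by Hbegf, Areg and Ereg, are made as membrane-bound precursors, released by proteases of the ADAM family, and bind the EGF receptor. Both receptor families signal through RAS, ERK and PI3K. ERK signalling switches on immediate-early genes, several EGFR ligand genes and the genes of its own inhibitors.

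Libraries held between 33180867 and 49351107 counted fragments, of which Yme1l-/- replicates 2 and 3 were the deepest. Levels are given as CPM, counts per 1e6 of the scaled library. Yme1l1 was at 188.7 ± 5.16 CPM in WT and 39.1 ± 1.34 CPM in Yme1l-/- cells (SD, n = 3), which is 20.7% of WT. Among 10 fibroblast markers, Fn1, Vim, Col1a1 and Col1a2 were abundant while Thy1 and Lum were near 0 in every library. The fibroblast markers summed to between 10898 and 11444 CPM in WT and between 6664 and 7146 CPM in Yme1l-/- libraries. This list holds Pdgfra itself. Of 8 markers tested, 6 fell, Fn1, Vim and Col1a2 among them, where 34.1% of all loci fell, and Col1a1 rose by 0.43 ± 0.060 on the log2 scale. Of the WT libraries, replicate 2 stood apart, with Dcn at 7.85 CPM against 1.56 CPM and Col3a1 at 301.2 CPM against 91.1 CPM in replicate 3. Without replicate 2, a fit added after the data were seen, 6 of the 8 fibroblast markers fell, Dcn and Col3a1 included. The count of members called and several values are therefore also given without it.

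Most of these growth factor transcripts were lower in Yme1l-/- cells, and Egfr was higher. Of the 10 members, 9 passed the edgeR test at an adjusted p under 0.05, against 67.7% of all loci tested. Egfr and Pdgfb rose, 2 members against 33.6% of all loci, and 7 fell, against 34.1% of all loci. A called change of at least 2-fold was seen for 6 members, Egfr upwards and Pdgfc, Pdgfd, Hbegf, Areg and Ereg downwards, where 17.7% of all loci had one. The 3 libraries of one genotype did not overlap with the 3 of the other for 9 members, where 71.9% of all loci did not overlap. The median log2 fold change of the 10 members was −1.70, and that of all loci was −0.0041. With Pdgfd at the bound that its counts allow, the median was also −1.70. Without WT replicate 2, 8 members passed the test. The members were chosen with earlier results of these data known. In bulk RNA, fewer cells that express a gene and less of its RNA per cell cannot be told apart.

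**Figure D1:**
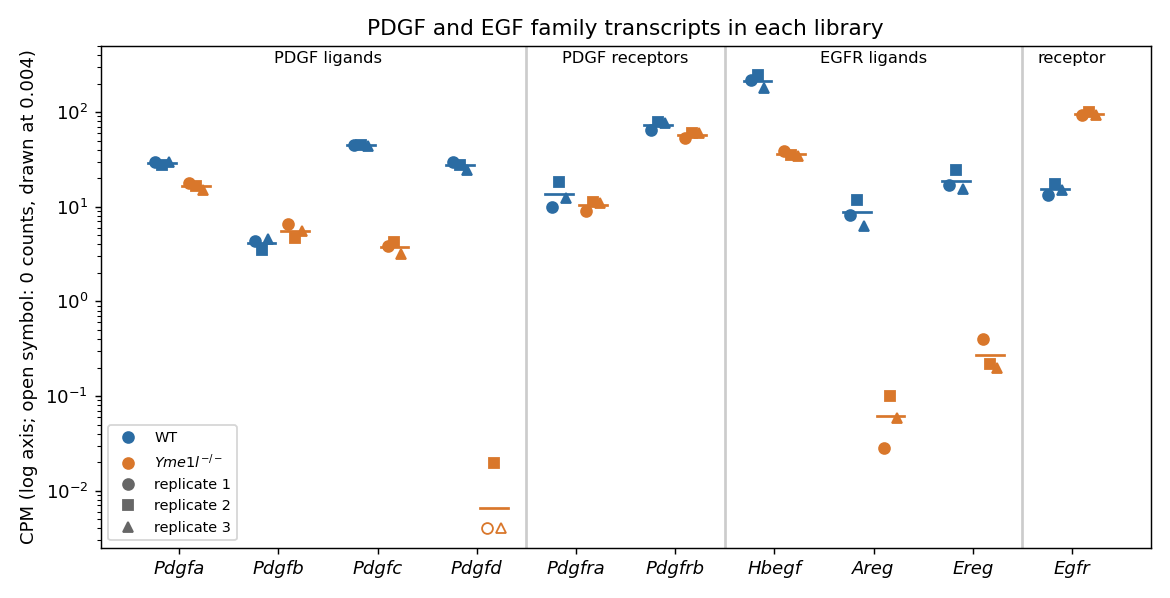
Levels of the 10 members in each library as CPM on a log axis, with WT in blue, Yme1l-/- in orange, a symbol for each replicate and a line at the mean of 3. Pdgfd had 1 count in the 3 Yme1l-/- libraries together, Areg and Ereg were below 1 CPM there, and Egfr lay between 92.6 and 99.2 CPM.

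Among the PDGF ligands, Pdgfd was nearly absent from Yme1l-/- cells, and Pdgfc and Pdgfa fell. Pdgfd encodes PDGF-DD, a ligand of the β receptor that is activated by proteolysis. WT cultures gave 992, 912 and 801 counts of Pdgfd and Yme1l-/- cultures 0, 1 and 0. The pooled counts of 2705 and 1, scaled to library size, gave a ratio of 3745 (exact 95% interval 671.6 to 147980, counting error only). Pdgfd was the member with the strongest decrease, and the single Yme1l-/- count came from replicate 2.

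Pdgfc encodes PDGF-CC, another ligand activated by proteolysis, which binds the α receptor. It was at 45.3, 44.9 and 43.4 CPM in WT and at 3.83, 4.28 and 3.14 CPM in Yme1l-/- cells. The libraries of each genotype lay close together, and the genotypes were 11.9-fold apart, a log2 fold change of −3.57 ± 0.096 (SE, adjusted p = 1.31e-10). For both genes the promoter is shown, since they were the PDGF ligands with the strongest decrease. The windows run from 250 bases before to 50 bases after the RefSeq transcription start (GRCm38.p6, plus strand, Pdgfc at chr3:81036166-81036465 and Pdgfd at chr9:6168236-6168535), with any matched motif in capitals.
Pdgfc: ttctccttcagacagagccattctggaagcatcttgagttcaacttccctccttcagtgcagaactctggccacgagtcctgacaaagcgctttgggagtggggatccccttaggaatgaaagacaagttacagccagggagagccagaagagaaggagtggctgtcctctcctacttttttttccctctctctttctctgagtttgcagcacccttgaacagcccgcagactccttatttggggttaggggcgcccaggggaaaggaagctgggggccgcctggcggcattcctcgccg
Pdgfd: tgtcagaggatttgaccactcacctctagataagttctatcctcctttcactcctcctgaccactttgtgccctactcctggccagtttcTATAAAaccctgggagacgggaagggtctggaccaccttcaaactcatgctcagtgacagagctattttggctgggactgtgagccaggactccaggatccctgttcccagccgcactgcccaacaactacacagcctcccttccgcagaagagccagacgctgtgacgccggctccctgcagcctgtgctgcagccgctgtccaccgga
The motifs searched, on both strands, were AP-1 (TGANTCA), the TATA box (TATAAA), SP1 (GGGCGG), ETS (CCGGAAGT) and CRE (TGACGTCA). Over all 32851 windows of this length in the reference table, matches were found in 7.81% for AP-1, 13.6% for the TATA box, 35.7% for SP1, 3.89% for ETS and 1.79% for CRE. The Pdgfc window held none of these 5 strings. The Pdgfd window held 1, TATAAA with its first base at −160 from the start. This window ended before the counted Pdgfd locus, which begins at chr9:6168584. The bases after its start were found in no reference transcript of Pdgfd, so the position of the start is uncertain. The RefSeq table gave windows for 6 of the 10 members, Pdgfa, Pdgfc, Pdgfd, Pdgfra, Egfr and Areg.

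Pdgfa encodes the A chain, a ligand of the α receptor. It was at 29.8, 27.4 and 29.4 CPM in WT and at 17.6, 16.7 and 14.9 CPM in Yme1l-/- cells. Every Yme1l-/- library was below every WT library, with a log2 fold change of −0.82 ± 0.074 (adjusted p = 1.87e-06). The locus overlaps the antisense transcript 6330403L08Rik, which moved by −0.85 ± 0.099 in the same direction. The strand setting of the counting is not given in the sources used here, so fragments of this pair cannot be assigned with certainty.

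Pdgfb, which encodes the B chain that binds both receptors, was the PDGF ligand that rose. It was at 4.38, 3.45 and 4.59 CPM in WT and at 6.54, 4.62 and 5.52 CPM in Yme1l-/- cells. The genotypes did not overlap, but the highest WT and the lowest Yme1l-/- library were nearly equal. The log2 fold change was 0.42 ± 0.16 (adjusted p = 0.0339), while the median of the 545 loci tested on chromosome 15, where Pdgfb lies, was 0.59. Relative to that median, Pdgfb was at −0.17 and was not called (adjusted p = 0.358). The call was also lost without WT replicate 2 (0.30), without Yme1l-/- replicate 1 (0.29) and without Yme1l-/- replicate 3 (0.42).

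The 4 PDGF ligands summed to 105.0 ± 3.92 CPM in WT and 25.7 ± 2.24 CPM in Yme1l-/- cells, a 4.08-fold difference for which no test was run. The composition of the sum also differed. Pdgfc made up 42.4% ± 0.99, Pdgfa 27.5% ± 1.22 and Pdgfd 26.1% ± 1.79 of the PDGF ligand counts in WT. In Yme1l-/- cells Pdgfa made up 63.8% ± 1.18, Pdgfb 21.6% ± 3.08 and Pdgfc 14.6% ± 1.88. The share of Pdgfb was 3.95% ± 0.59 in WT. These shares are of fragments and are not corrected for transcript length.

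**Figure D2:**
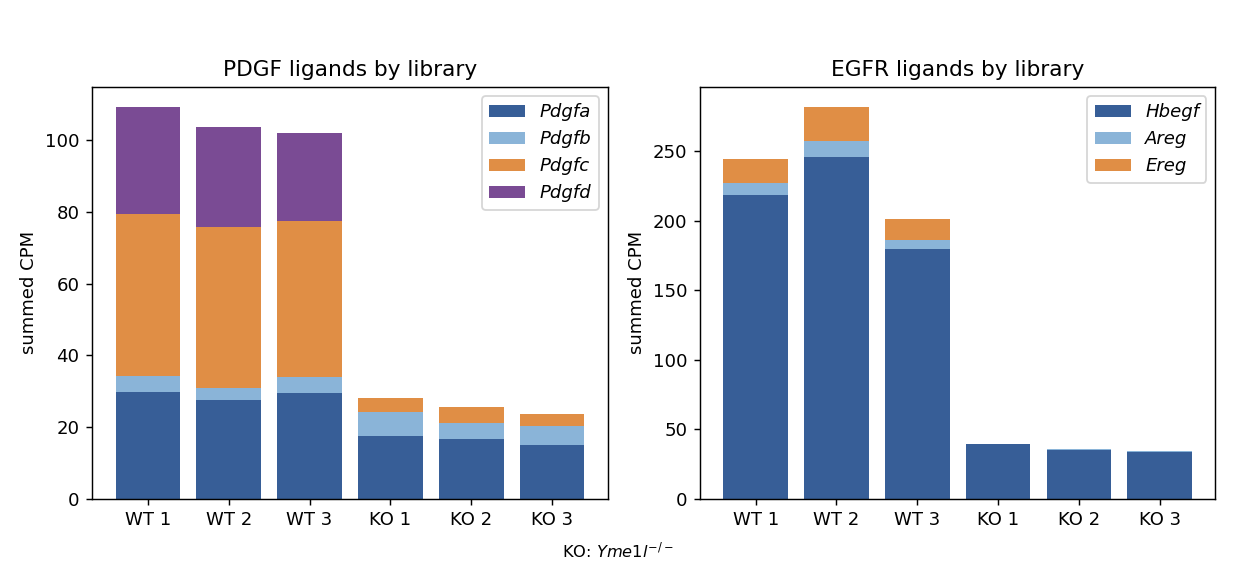
Summed CPM of the PDGF ligands (left) and of the 3 EGFR ligands (right) in each library, with bars divided by gene and KO standing for Yme1l-/-. The PDGF ligand sum was 102.0 to 109.4 CPM in WT and 23.5 to 28.0 CPM in Yme1l-/- libraries, and Hbegf was the largest part of the EGFR ligand sum in every library.

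Of the PDGF receptors, Pdgfrb fell and Pdgfra did not pass the test. Pdgfrb was at 64.6, 78.4 and 76.0 CPM in WT and at 52.9, 60.6 and 59.9 CPM in Yme1l-/- cells, so that every Yme1l-/- library was below every WT library. This was a log2 fold change of −0.34 ± 0.078 (adjusted p = 0.00286). Relative to the median of its chromosome, which was −0.21, the value was −0.13 and was not called (adjusted p = 0.179).

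Pdgfra was at 9.94, 18.2 and 12.4 CPM in WT and at 8.92, 11.1 and 11.0 CPM in Yme1l-/- cells. WT replicate 2 was the highest of the 6 libraries and the genotypes overlapped. The log2 fold change of −0.38 ± 0.22 did not pass the test (adjusted p = 0.160), and over the alternative settings it ranged from −0.56 to −0.11, the latter without WT replicate 2 (adjusted p = 0.520). It passed with DESeq2 (−0.38, adjusted p = 0.0428), with replicate number as a block (−0.35, adjusted p = 0.0151) and without WT replicate 1 (−0.56, adjusted p = 0.0155). Per 100 fragments of Pdgfrb WT cultures had 15.4, 23.2 and 16.3 fragments of Pdgfra and Yme1l-/- cultures 16.8, 18.4 and 18.4. The log2 ratio differed by −0.0098 between genotypes (exact two-sided permutation test over 6 libraries, p = 1.0, smallest possible p = 0.10), against an SD of 0.32 among WT libraries. Without WT replicate 2 the difference was 0.17.

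The 3 EGFR ligands among the members, Hbegf, Areg and Ereg, each fell. Hbegf encodes HB-EGF, which also binds ERBB4. It was the most abundant member in WT, at 219.0, 245.9 and 179.8 CPM, and was at 39.3, 35.4 and 34.0 CPM in Yme1l-/- cells. The genotypes were far apart, with 16.9% of the WT level left and a log2 fold change of −2.57 ± 0.12 (adjusted p = 3.90e-07).

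Areg encodes amphiregulin. It had 272, 390 and 205 counts in WT and 1, 5 and 3 counts in Yme1l-/- cells, or 8.80 ± 2.86 and 0.062 ± 0.035 CPM. The log2 fold change was −7.00 ± 0.38 (adjusted p = 1.23e-07), from 867 against 9 counts in all. Ereg encodes epiregulin. Its counts were 563, 803 and 497 in WT and 14, 11 and 10 in the Yme1l-/- libraries, or 18.9 ± 4.94 and 0.27 ± 0.11 CPM. The log2 fold change was −6.18 ± 0.28 (adjusted p = 8.65e-08), which leaves 1.44% of the WT level. For both genes WT replicate 2 was the highest library and WT replicate 3 the lowest of the WT libraries. Without WT replicate 2 the log2 fold changes were −2.47 for Hbegf, −6.72 for Areg and −5.95 for Ereg, and all 3 were still called.

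Egfr, which encodes the receptor of these ligands, moved in the opposite direction. It was at 13.4, 17.6 and 14.9 CPM in WT and at 92.6, 99.2 and 94.3 CPM in Yme1l-/- cells. The Yme1l-/- libraries lay within a narrow range, 6.22-fold above the WT mean. The log2 fold change was 2.64 ± 0.083 (adjusted p = 6.29e-10), with a median of 0.36 over the 1112 loci tested on chromosome 11. Relative to that median, Egfr was still called, at 2.28. The antisense transcript Egfros inside the locus had at most 9 counts in any library. The 3 EGFR ligands summed to 242.6 ± 40.5 CPM in WT and 36.6 ± 2.80 CPM in Yme1l-/- cells, a 6.63-fold difference without a test. Hbegf made up 88.7% ± 1.40 and 99.1% ± 0.17 of that sum. The sum leaves out other EGFR ligands. In WT and Yme1l-/- cells, Tgfa was at 7.62 and 6.77 CPM and Egf at 1.26 and 1.79 CPM.

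The promoters of Areg and Egfr are shown as the EGFR ligand with the strongest decrease and its receptor, which rose. The windows are as above (RefSeq, GRCm38.p6, plus strand, Areg at chr5:91139349-91139648 and Egfr at chr11:16751953-16752252), with matches in capitals.
Areg: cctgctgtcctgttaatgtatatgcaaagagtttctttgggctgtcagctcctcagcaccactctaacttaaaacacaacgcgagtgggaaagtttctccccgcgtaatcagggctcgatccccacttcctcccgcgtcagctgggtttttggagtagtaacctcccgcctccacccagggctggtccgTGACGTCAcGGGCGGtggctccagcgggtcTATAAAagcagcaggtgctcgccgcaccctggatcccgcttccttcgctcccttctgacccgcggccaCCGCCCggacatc
Egfr: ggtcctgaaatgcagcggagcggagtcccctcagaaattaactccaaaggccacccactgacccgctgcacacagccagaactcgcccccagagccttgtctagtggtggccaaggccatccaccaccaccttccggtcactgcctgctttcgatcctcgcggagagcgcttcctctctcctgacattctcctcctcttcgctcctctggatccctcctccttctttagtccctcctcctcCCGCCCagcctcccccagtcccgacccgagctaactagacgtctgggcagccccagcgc
The Areg window held CRE at −61, SP1 at −52, the TATA box at −31 and SP1 on the opposite strand at 38, each position being that of the first matched base counted from the start. The Egfr window held SP1 on the opposite strand at −9 and none of the other 4 motifs. None of these matches overlapped another. CRE was the rarest of the 5 motifs over all windows, at 1.79%.

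**Figure D3:**
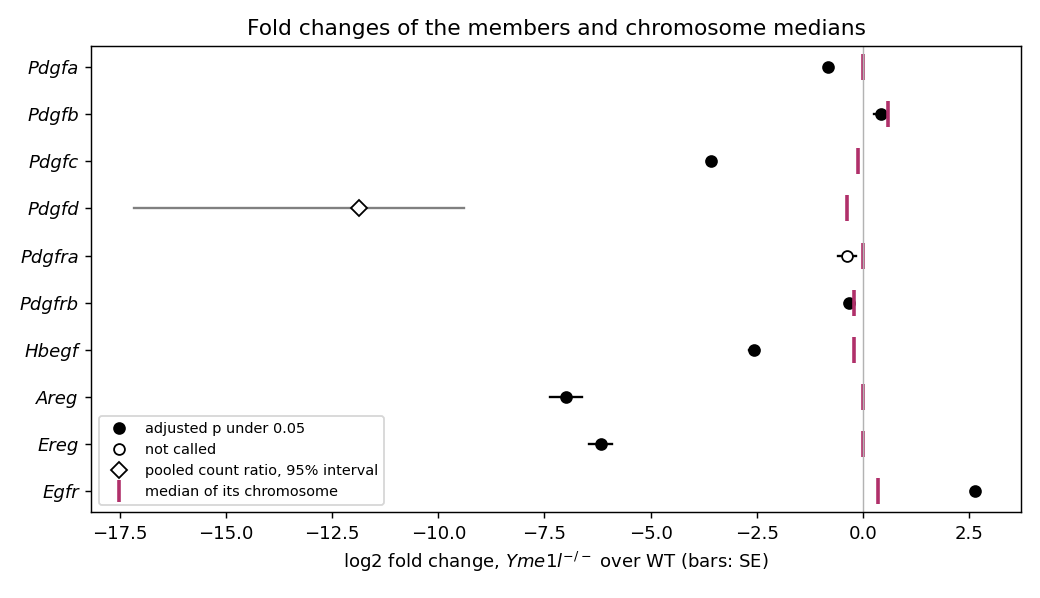
Log2 fold changes of the members (Yme1l-/- over WT, bars SE), with filled circles for calls, an open circle for Pdgfra and a diamond for the pooled count ratio of Pdgfd with its 95% interval. The vertical marks are the medians of each member's chromosome, from −0.36 for Pdgfd to 0.59 for Pdgfb.

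Levels of different genes were compared per kilobase of exonic sequence. In WT, Hbegf was highest at 44.5 ± 6.88 CPM per kb, followed by Pdgfrb at 13.3 ± 1.35. Pdgfa (9.26 ± 0.41), Pdgfc (8.75 ± 0.19), Pdgfd (8.70 ± 0.87) and Areg (7.25 ± 2.36) came next and did not differ beyond their spread, and Ereg was at 4.58 ± 1.20. Egfr (1.35 ± 0.19), Pdgfra (1.35 ± 0.42) and Pdgfb (0.995 ± 0.15) were the lowest. In Yme1l-/- cells the order was led by the receptors Pdgfrb (10.6 ± 0.78) and Egfr (8.42 ± 0.30), with Hbegf at 7.50 ± 0.56 and Pdgfa at 5.25 ± 0.45 CPM per kb. Pdgfb (1.34 ± 0.23), Pdgfra (1.03 ± 0.13) and Pdgfc (0.74 ± 0.11) followed, and Ereg (0.066 ± 0.027), Areg (0.051 ± 0.029) and Pdgfd (0.0021 ± 0.0036) were last. The order depends on the length assigned to a gene. In the authors' FPKM values, 1 per genotype, Pdgfrb ranked 4 in both genotypes, and Hbegf ranked 1 in both.

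Of 8 other EGF family ligands listed, 4 had enough counts, and 3 of these rose, where 33.6% of all loci did, with a median log2 fold change of 0.55. The count of calls in either direction was 2 with DESeq2 and without WT replicate 2, WT replicate 3 or Yme1l-/- replicate 3, and 4 with no filter and relative to chromosome medians. Nrg2, a neuregulin that binds ERBB3 and ERBB4, rose by 1.59 ± 0.23 on the log2 scale, from 0.65 ± 0.13 to 1.95 ± 0.37 CPM (adjusted p = 0.000101). Nrg1 was at 28.6 ± 1.89 and 43.1 ± 1.32 CPM and Egf at 1.26 ± 0.089 and 1.79 ± 0.15 CPM, and both passed the test. Tgfa, which encodes TGFα, another EGFR ligand, did not pass (−0.16 ± 0.14, adjusted p = 0.309). Epgn and Btc lie on chromosome 5 on either side of Ereg and Areg and were too low to test, with 5, 20 and 6 and with 8, 20 and 7 counts in WT. In the Yme1l-/- libraries Epgn had 8, 6 and 2 counts and Btc 0, 4 and 2. Of the other ERBB receptors, Erbb2 fell by 0.14 ± 0.045 and Erbb3 by 0.63 ± 0.12 on the log2 scale, and Erbb4 had too few counts to test, with 9, 14 and 11 in WT and 0, 1 and 0 in Yme1l-/- cells. Of all loci, 34.1% were called lower. With upper-quartile scaling, 1 of these receptors was called. All 3 were called with no filter, without Yme1l-/- replicate 2 and without Yme1l-/- replicate 3.

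Ligand release and activation, a list of 11 genes, had 8 lower, 2 higher and 1 not called, with a median of −0.49. Of all loci, 34.1% were called lower and 33.6% higher. Pcsk5, a proprotein convertase, had 298 counts in WT and 0 in Yme1l-/- libraries, at least 138-fold lower against 3 counts over the Yme1l-/- group. Adam12, a metalloprotease known to shed HB-EGF, went from 62.9 ± 3.26 to 1.97 ± 0.61 CPM (−5.03 ± 0.16, adjusted p = 1.15e-08). Plau, the urokinase that can activate PDGF-DD, fell from 38.8 ± 0.32 to 18.1 ± 0.50 CPM (−1.10 ± 0.053). Adam17, a main sheddase of EGFR ligands, fell by 0.95 ± 0.043 on the log2 scale. The 2 that rose were Rhbdf2, which encodes iRhom2, a partner of ADAM17 (0.67 ± 0.071), and Plat (0.17 ± 0.066, adjusted p = 0.0387).

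All 14 genes in a list of receptor and ERK feedback inhibitors fell, where 34.1% of all loci did, with a median of −0.83. All 14 were called in each of the 13 alternative settings. This list and the other pathway lists were chosen with earlier results of these data known, so their counts are a description only. Spry4, a Sprouty inhibitor of receptor signalling to ERK, fell from 10.9 ± 2.08 to 0.42 ± 0.21 CPM (−4.63 ± 0.27, adjusted p = 1.87e-07). Errfi1 encodes MIG6, which binds and inhibits the EGF receptor. It was at 221.9, 296.5 and 185.8 CPM in WT and at 33.5, 30.7 and 34.9 CPM in Yme1l-/- cells (−2.83 ± 0.20, adjusted p = 7.17e-05). The dual-specificity phosphatases Dusp4 (−2.06 ± 0.34), Dusp5 (−2.02 ± 0.15) and Dusp6 (−1.34 ± 0.15), which act on MAP kinases, fell as well, as did Spry2 (−2.05 ± 0.073). The weakest member of the list was Lrig1, at −0.32 ± 0.068.

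Transcripts that respond to growth factors also fell, 16 of 17, with 1 higher and a median of −1.17. At least a 2-fold decrease was called for 10 of the 17. Of all loci, 34.1% were called lower, and 17.7% had a called change of at least 2-fold in either direction. This list, too, was chosen with earlier results known. Without WT replicate 2, 14 of the 17 were called. The AP-1 subunits Fosb (−2.19 ± 0.20), Jun (−1.37 ± 0.074) and Fosl1 (−1.36 ± 0.064) were among them. The early growth response factor Egr3 went from 12.7 ± 4.86 to 3.24 ± 0.27 CPM (−1.97 ± 0.27, adjusted p = 0.000358). Etv4 (−1.89 ± 0.081) and Etv5 (−1.43 ± 0.069), ETS factors induced by receptor tyrosine kinases, fell with narrow spread. The member that rose was Ier3, an immediate-early gene, at 0.24 ± 0.090 (adjusted p = 0.0370). Myc and Srf fell by 0.17 ± 0.065 and 0.17 ± 0.055 on the log2 scale.

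Of 24 listed adaptors and kinases between the receptors and these targets, 23 were tested, and none of the 23 had a called change of 2-fold. Of these, 12 fell, 5 rose and 6 were not called, with a median of −0.17, so the share of calls was near the 67.7% of all loci. Src fell by 0.89 ± 0.049 and Akt1 by 0.74 ± 0.048 on the log2 scale, while Braf rose by 0.67 ± 0.076. Src, Akt1, Braf, Nrg1, Egf, Tgfa, Erbb2, Erbb3, Adam17, Rhbdf2, Plat, Lrig1, Ier3, Myc and Srf fall outside the rule for named genes and were picked after their values were seen.

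**Figure D4:**
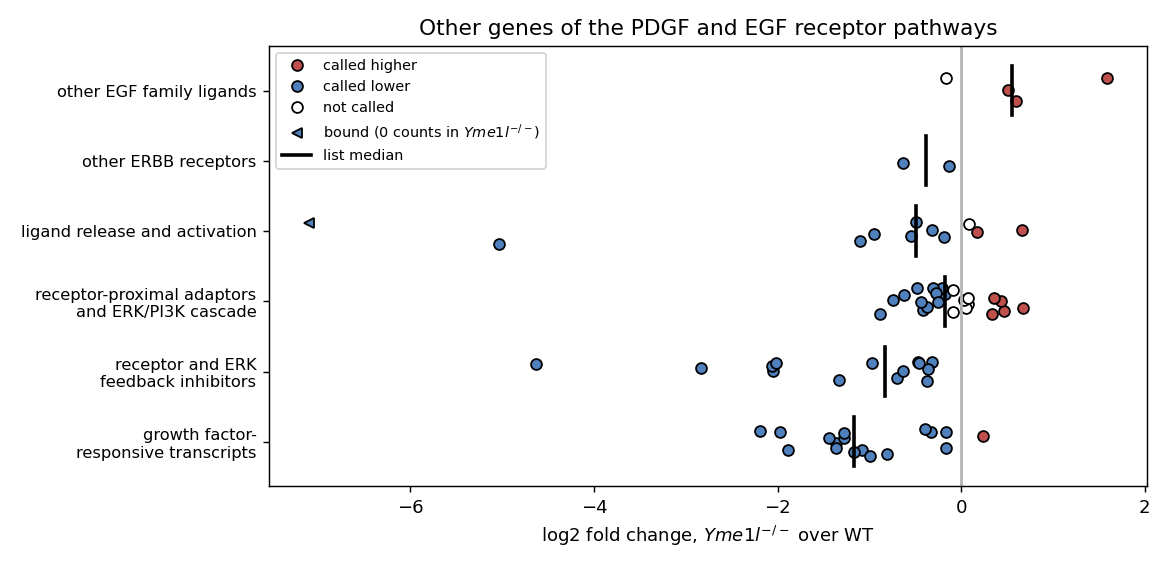
Log2 fold changes (Yme1l-/- over WT) of the tested genes in 6 lists of PDGF and EGF receptor pathways, red for called higher, blue for called lower, open for not called, a triangle for the bound of Pcsk5 and a bar at the list median. The 14 feedback inhibitors lie to the left of 0, and the 23 adaptors and kinases lie between −0.89 and 0.67.

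The spread among the WT libraries ran in the same order for Hbegf, Areg, Ereg and many ERK-responsive transcripts. Replicate 2 was the highest and replicate 3 the lowest WT library for these 3 ligands, and for 0 of the 4 other EGF family ligands tested. The same held for 13 of the 17 growth factor-responsive transcripts and for 8 of the 14 feedback inhibitors, against 16.1% of all loci tested. Replicate 3 was the lowest for 16 of the 17 responsive transcripts, where it was the lowest for 33.8% of all loci. Egr3 was at 18.1 CPM in WT replicate 2 and 8.70 CPM in WT replicate 3, and Dusp6 at 53.0 and 35.2 CPM. All of these WT values of Egr3 and Dusp6 were above those of the Yme1l-/- libraries. Without WT replicate 2 the log2 fold changes were −1.63 for Egr3, −1.15 for Dusp6 and −2.63 for Errfi1, and all 3 were still called. This is a description over 3 libraries, and genes are not independent of each other.

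**Figure D5:**
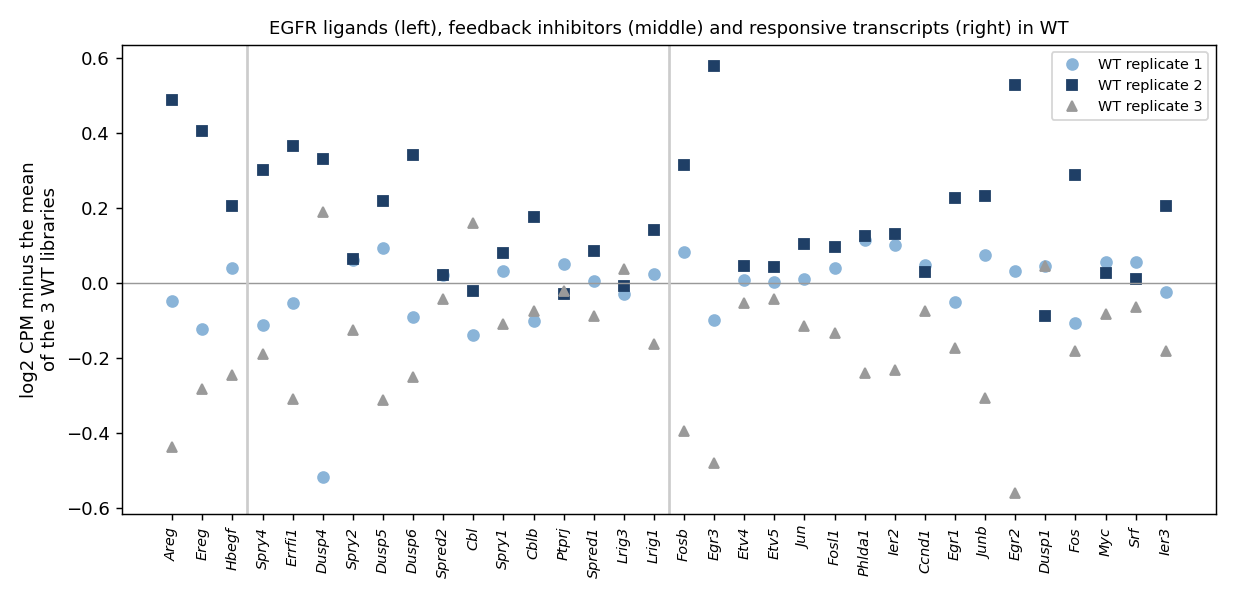
Log2 CPM of each WT replicate minus the mean of the 3 WT libraries, for the EGFR ligands, the feedback inhibitors and the growth factor-responsive transcripts, ordered by their fold change between genotypes within the lists. Replicate 2 (dark squares) lies above replicate 3 (grey triangles) for most genes, with the exceptions of Cbl, Ptprj, Lrig3 and Dusp1.

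Markers of other cell types moved with genotype beside these genes. Of 7 epithelial markers, the 3 that could be tested, Krt18, Krt19 and Epcam, all fell, where 34.1% of all loci did. The list summed to between 142.2 and 159.4 CPM in WT and between 2.83 and 3.71 CPM in Yme1l-/- libraries. The epithelial markers Cdh1, Krt5, Krt8 and Krt14 were below 1 CPM in every library. The 8 mural cell markers summed to between 206.2 and 222.0 CPM in WT and to at most 107.2 CPM in Yme1l-/- cells. Of the 8, Rgs5 and Abcc9 were at 0 in every library. Of the 5 tested, 3 fell and 2 rose, where 34.1% of all loci fell and 33.6% rose. This list holds Pdgfrb itself, 1 of the 3 that fell. The other 2 that fell were Mcam, from 107.8 ± 10.3 to 14.5 ± 0.41 CPM, and Cspg4, from 17.9 ± 1.07 to 1.89 ± 0.28 CPM, while Anpep rose by 3.26 ± 0.20 on the log2 scale. Endothelial markers summed to at most 2.00 CPM and leukocyte markers to at most 4.71 CPM, and Ptprc was near 0. The single tested marker of each list rose, where 33.6% of all loci did. On the log2 scale, Kdr rose by 0.72 ± 0.22 and Cd68 by 1.04 ± 0.14. The part of these markers in the changes of the growth factor genes was not tested.

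By the positions in the authors' table (mm10), the members lie on 6 chromosomes. Ereg (chr5:91051871-91093646), Areg (chr5:91139599-91148432), Pdgfra (chr5:75152292-75198215) and Pdgfa (chr5:138976014-139000577) share chromosome 5. Pdgfc (chr3:81036416-81214040), Pdgfd (chr9:6168584-6378850), Egfr (chr11:16752203-16918158) and Pdgfb (chr15:79995900-80014808) lie alone, and Hbegf and Pdgfrb lie on chromosome 18. The positions are those of the whole assembled locus, with its exons and introns. The neighbourhood of each member was described over the tested loci within 500 kb. Of 96 such loci, 72 were called, which is 75.0% and near the 67.7% of all loci. Areg and Ereg are among them, each as a neighbour of the other. Around Pdgfb, 19 of 22 loci rose and 1 fell, where 33.6% of all loci rose and 34.1% fell. Their median was 0.70, beside 0.59 over chromosome 15 as a whole. Around Egfr, 6 of 8 rose and none fell. Their median of 0.29 was below the 0.36 over chromosome 11 and well below the 2.64 of Egfr itself. Areg and Ereg lie 46.0 kb apart on chromosome 5, and their nearest tested neighbour, the folate enzyme gene Mthfd2l, 30.5 kb from Ereg, fell by 0.46 ± 0.065 on the log2 scale. Of the chemokine genes farther along, Cxcl5 fell by 2.11 ± 0.33 while Cxcl1 rose by 1.28 ± 0.15. Near Pdgfc there was 1 tested locus, Glrb, which encodes a glycine receptor subunit and fell by 2.92 ± 0.29, and near Pdgfd there was none. These neighbours were picked after their values were seen.

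Over the 6 libraries, the loci closest in pattern to Egfr, by Euclidean distance of gene-centred log2 CPM, were C1ra (0.14), H2-Q6 (0.17) and Lgals3bp (0.19), with log2 fold changes of 2.65 ± 0.12, 2.58 ± 0.073 and 2.72 ± 0.079. This distance includes the difference between genotypes, so fold changes near that of Egfr follow from the way these loci were picked. C1ra encodes a complement protease and H2-Q6 an MHC class I protein. Those closest to Pdgfrb were Ttll5 (0.051), Eml5 (0.073) and Slc35e2 (0.082). Among those closest to Pdgfra were Klhl24 (0.23) and Mturn (0.26). H2-Q6 belongs to a gene family with near-identical copies that can exchange fragments, so its value is uncertain.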

How the data were processed

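Poly(A)-selected RNA of 3 WT and 3 Yme1l-/- MEF cultures was sequenced from stranded libraries. The submitters' processing notes name HISAT2 2.0.4, StringTie 1.3.3 and Cuffdiff 2.2.1 and build GRCm38 (mm10). The authors deposited raw fragment counts per assembled locus without normalization, and how multi-mapping fragments and strand were treated in counting is not given in the sources used here. The authors also deposited FPKM values, 1 per genotype, used here for the order of levels and for positions. Their own fold changes and p-values in that table were not used.

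The fit was made with edgeR 4.0.16 in R 4.3.3: filterByExpr with a minimum count of 10, TMM scaling, and the quasi-likelihood test with robust estimation, two-sided, without covariates, over 13867 loci in 6 samples. P-values of this test were adjusted by Benjamini-Hochberg across the 13867 loci, and an adjusted p under 0.05 is a call. The SE was obtained from the log2 fold change and the test statistic. CPM are per 1e6 of the TMM-scaled library. Lengths are unions of GENCODE M21 exons. The receptor ratio used a pseudocount of 0.5. The fit was tested on simulated data. Precision is limited by depth, 33180867 to 49351107 counts per library, and intervals from counts cover counting error only. Alternatives were other scalings, DESeq2 1.42.0, other filters, a replicate block, chromosome medians and leaving out each library.

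The members and lists were chosen with earlier results of these data known. All members were described. From each pathway list (not the marker lists), the called genes with a log2 fold change of at least 1 in size and a mean level of 1 CPM or more in either genotype were named, at most 6 per list. For Junb, listed at 2 loci, the locus with more counts was used. Loci without a single position, 45 of those tested, were left out of chromosome medians. Values of some single genes are not reported here.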

Additional observations from a re-analysis of the deposited data

How the results depend on the processing

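Of 335 values of named genes under the alternatives, 327 kept their direction and their side of the threshold. Pdgfb reversed to −0.17 relative to chromosome medians, so that 1 member was called higher there. Leaving out single libraries gave 1 to 2 members called higher and 8 to 10 called in all, and between 8847 and 9406 of all loci called. Of the other ERBB receptors, all 3 were called with no filter and without Yme1l-/- replicate 2 or Yme1l-/- replicate 3. Only 1 was called with upper-quartile scaling, which moved the median of all loci to 0.055 and the share of higher calls from 49.6% to 55.1%. With at least 10 counts in every library, Pdgfd, Areg and Pcsk5 were not tested, and 7 members were called. Correlations of deviations between libraries of the same replicate number were 0.20, −0.16 and 0.048, which cannot show whether the cultures were paired. With the replicate block, 10 members and 9794 loci were called, Pdgfra among them (−0.35, adjusted p = 0.0151). The causes were not tested. Depth limits Areg, Ereg and Pdgfd in Yme1l-/- cells, where 9, 35 and 1 fragments were counted.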
